A study of Mus musculus with 6 samples.

Results

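The proteasome genes were described in quadriceps, the thigh muscle that extends the knee, labelled as mouse, from limbs with a torn anterior cruciate ligament (ACL, a ligament inside the knee) and from limbs without that injury. They are the protein-coding genes whose name is Psma, Psmb, Psmc or Psmd and a number, without the immunoproteasome genes Psmb8, Psmb9 and Psmb10. That rule found 36 of the 20015 genes in the table. Of these, 31 encode subunits of the 26S proteasome: 7 alpha subunits and 7 beta subunits of the 20S core, 6 ATPases of the 19S cap, and 11 further subunits of that cap. The other 5 are 3 assembly chaperones of the cap (Psmd5, Psmd9 and Psmd10), the beta subunit of the thymus, Psmb11, and Psmc3ip. The name of Psmc3ip matches by its letters only, since its protein acts in meiotic recombination and is no proteasome subunit.

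Quadriceps RNA was sequenced in 6 libraries, injured A, B and C and non-injured A, B and C. The injured libraries held 6452791 to 7499758 counts and the non-injured ones 7234184 to 8752501. Per the series text, muscle was taken before surgical repair of the ligament. The labels give no strain, age, sex or time after injury, and do not say whether libraries of a group are from separate individuals or whether the injured and non-injured limbs belong to the same ones. The series text and the RNA protocol speak of human tissue while the organism label is mouse; every proteasome gene in the table had the mm10 start and end, to within 1 base, of its namesake in the mouse annotation GENCODE M21. The table's name calls the RNA myonuclear, whereas the protocol describes total RNA and no isolation of nuclei.

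The 26S proteasome degrades proteins that carry a chain of ubiquitin. Its 20S core is a barrel of stacked rings in which alpha subunits form the outer gates and beta subunits the inner chamber where peptide bonds are cut. The 19S cap binds the ubiquitin chain, removes it, unfolds the protein with a ring of ATPases and feeds it into the core. In skeletal muscle this route takes apart contractile proteins during wasting, and the mRNAs of its subunits are known to be raised in many forms of atrophy.

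All 13 muscle fibre markers listed for the check of the tissue were in the table, with a summed level of 201500 to 210500 CPM (counts per 1000000 of a library's scaled total) in injured and 218400 to 225900 CPM in non-injured libraries. Of 10 macrophage markers, all measured, 4 were higher in injured muscle by the test described next, and their sum was 104 to 179 CPM in injured and 44.5 to 54.3 CPM in non-injured libraries. Proteasome genes are active in every cell type, and the part of the macrophage difference in the values below was not tested. Of 5 erythroid markers 1 was higher, with sums of 132 to 324 CPM in injured and 71.4 to 151 CPM in non-injured libraries. In bulk muscle RNA, fewer cells of a type and less RNA per cell cannot be told apart.

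Proteasome subunit mRNAs were not detectably different between injured and non-injured quadriceps. Of the 36 genes 35 passed the filter on low counts, and 0 of these 35 had an adjusted p under 0.05 (edgeR quasi-likelihood test, Benjamini-Hochberg adjustment over 16095 genes). Over all genes tested 0.746% passed, so a count of 0 among 35 is near the background. DESeq2 and limma-voom also called 0 of 35, against 2.03% and 0.367% of all genes. With the letter as a block edgeR called 0 of 35, against 5.86% of all genes. At an unadjusted p under 0.05 there were 6 of the 35 (17.1%), all with the higher level in injured muscle: Psma7, Psmb11, Psmc4, Psmc5, Psmd2 and Psmd4. Psmb11 had few counts and passed the filter through its injured libraries, which favoured a higher value there. Of all genes 9.25% met that unadjusted p with a higher value in injured muscle and 15.4% in either direction. For the 31 subunits of the 26S proteasome the counts were 5 higher and 0 lower. For the 5732 protein-coding genes in their range of mean counts they were 278 and 439.

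The intervals limit how large a difference could have been missed. For each of the 31 subunits of the 26S proteasome the 95% interval of the fold change, from the same fit, lay inside a 2-fold change in either direction, which held for 59.4% of all genes. The 31 subunits had a mean of 84.5 to 826 counts per library, and the median half-width of their intervals was 0.36 on the log2 scale. That half-width was nearly the same, 0.37, for protein-coding genes in the same range of mean counts, and 0.56 for all genes. The log2 fold changes of the 31 subunits ran from -0.16 (Psmd12) to 0.47 (Psmc5), with a median of 0.09. The 5732 protein-coding genes in the same range of mean counts had a median of -0.07, and all genes one of 0.00. A positive sign was seen in 25 of the 31 subunits, against 50.2% of all genes tested and 38.4% of those 5732 protein-coding genes. The summed level of the 31 was 1390, 1407 and 1637 CPM in injured libraries A, B and C and 1488, 1288 and 1273 CPM in non-injured libraries A, B and C. Injured C was the highest of these sums, and injured A and B lay below non-injured A.

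**Figure D1:**
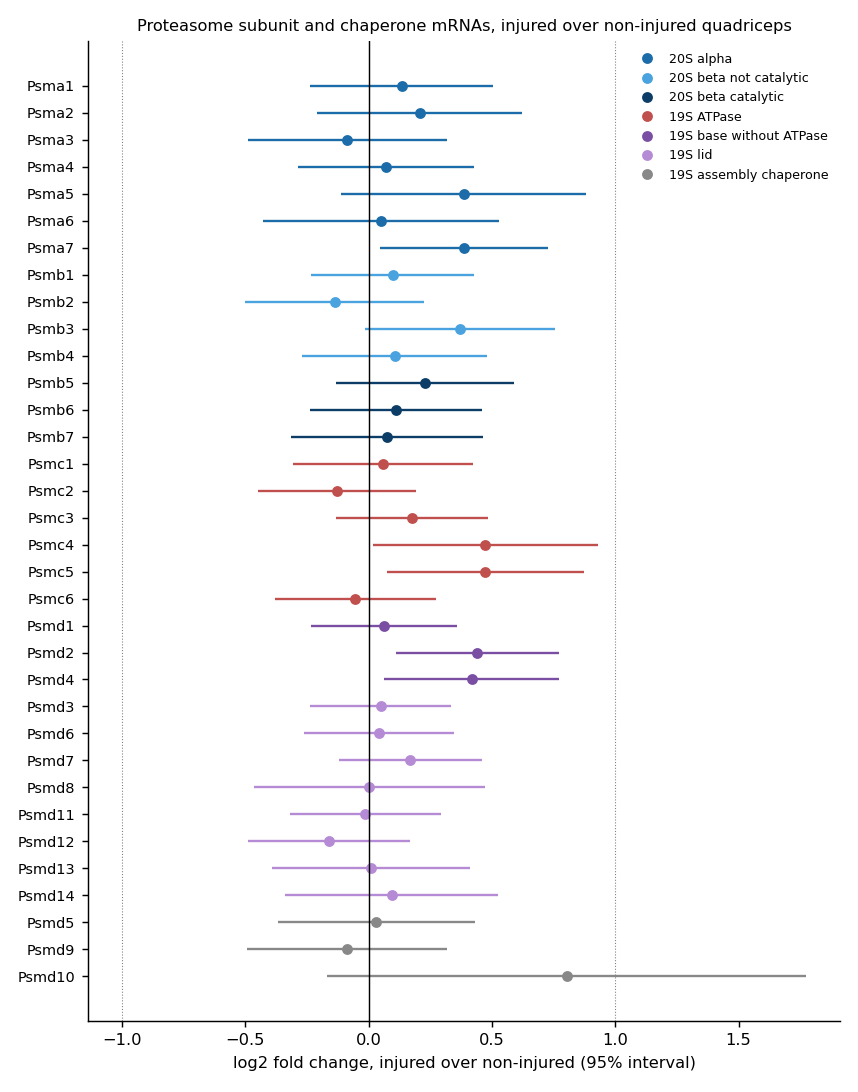
Log2 fold change of each tested proteasome gene, injured over non-injured quadriceps (x axis), with its 95% interval from the edgeR fit (bars; 3 libraries per group); genes run down the page by their place in the complex, and dotted lines mark a 2-fold change. The intervals of Psma7, Psmc4, Psmc5, Psmd2 and Psmd4 lie above 0 without adjustment, the 31 subunits lie within the dotted lines, and the widest interval is that of the chaperone Psmd10; Psmb11 is left out.

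Per length of mRNA, subunits that sit in equal numbers in the particle had unequal levels. Levels were compared as CPM per kilobase (kb) of mRNA, averaged over the 6 libraries, with the length of the principal coding transcript in GENCODE M21. The highest was Psmd4, the ubiquitin receptor of the cap, at 75.1 CPM per kb, followed by the lid subunit Psmd8 at 73.3. The lowest of the 31 subunits was the alpha subunit Psma2 at 5.75 CPM per kb. The beta subunits of the core kept closest together, from 20.99 (Psmb2) to 46.4 (Psmb6). Alpha subunits ran from Psma2 up to Psma7 at 35.0 CPM per kb, ATPases from 14.9 (Psmc5) to 45.8 (Psmc3), and lid subunits from 9.78 (Psmd14) to Psmd8. The principal transcripts of Psma2 and Psma3 are 2911 and 2846 bases long, and a shorter transcript in use would raise their level per length. The chaperones Psmd9, Psmd5 and Psmd10 stood at 4.52, 3.71 and 1.56 CPM per kb, below every subunit of the particle. For Psmd5, whose principal transcript has 4397 bases, that place depends on the length used. Without division by length it averaged 16.5 CPM in injured and 16.2 CPM in non-injured libraries, above the lid subunit Psmd14 with 15.55 and 14.6 CPM.

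**Figure D2:**
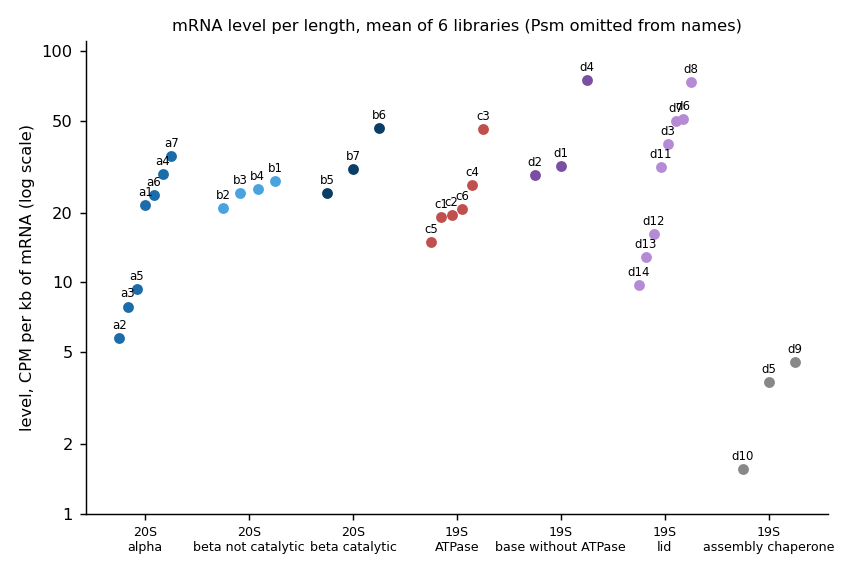
Level of each subunit and chaperone mRNA in CPM per kb of mRNA (log axis), mean of the 6 libraries, by place in the complex (x axis); each point is a gene, named without its Psm prefix. Psmd4 and Psmd8 are highest at 75.1 and 73.3 CPM per kb, and the chaperones lie lowest.

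The transcription factor NRF1, encoded by Nfe2l1, is known to raise proteasome genes together when proteasomes are inhibited, by binding antioxidant response elements (AREs) in their promoters. RefSeq windows from 250 bases before to 50 after a gene start, on GRCm38.p6, were at hand for 25 of the 31 subunit genes. The ARE core TGACNNNGC, searched on both strands, was found in 4 of the 25 (16.0%), and in 14.8% of 17492 protein-coding genes with such windows. The exact letters TGACTCAGC were found in 0 of the 25 and in 0.475% of the protein-coding genes. The matches are shown because they include 2 of the 3 catalytic subunits; capitals mark the motif, each reads 5′ to 3′ on the strand that holds TGACNNNGC, and a match is a description of letters only.
Psmb5 (chr14:54618024-54618052, minus strand): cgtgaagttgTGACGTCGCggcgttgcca
Psmb6 (chr11:70525338-70525366, plus strand): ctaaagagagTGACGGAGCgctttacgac
Psmc6 (chr14:45329587-45329615, minus strand): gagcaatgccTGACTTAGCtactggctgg
Psmd12 (chr11:107479278-107479299, minus strand): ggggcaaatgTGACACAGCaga
The log2 fold changes of these 4 genes, given below, were 0.23, 0.11, -0.05 and -0.16, and 0 of them passed the test.

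The 3 catalytic beta subunits, which hold the sites that cut peptide bonds, overlapped between the groups. Psmb5 carries the chymotrypsin-like site, the target of proteasome inhibitor drugs (chromosome 14, 54614119 to 54618022). Its level was 20.98, 23.1 and 26.8 CPM in injured A, B and C and 22.7, 18.3 and 19.6 CPM in non-injured A, B and C. Non-injured A lay above injured A, so the groups overlapped, and the log2 fold change of 0.23 ± 0.17 (SE, adjusted p 0.556 by edgeR) had an interval from -0.13 to 0.59. Psmb6, with the caspase-like site (chromosome 11, 70525367 to 70527858), had 34.8, 35.8 and 44.9 CPM in injured and 40.8, 34.6 and 31.5 CPM in non-injured libraries, a log2 fold change of 0.11 ± 0.16 (SE). Psmb7, with the trypsin-like site (chromosome 2, 38588036 to 38644087), had 33.8, 31.9 and 44.9 CPM in injured and 42.5, 32.8 and 29.9 CPM in non-injured libraries, a log2 fold change of 0.07 ± 0.18 (SE). In all 3, injured C was the highest library and non-injured A the highest of its group.

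The 4 beta subunits without a catalytic site had log2 fold changes from -0.14 to 0.37. Psmb3 had the highest of them, with 21.3, 17.1 and 24.4 CPM in injured and 16.5, 15.0 and 17.1 CPM in non-injured libraries (adjusted p 0.349 by edgeR). Injured B and non-injured C met at nearly the same value. Psmb2, whose value was the lowest, had 16.2, 16.5 and 18.8 CPM in injured and 18.5, 20.9 and 17.3 CPM in non-injured libraries, again overlapping. Psmb1 and Psmb4 stood at 0.10 and 0.11 on the log2 scale.

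Among the alpha subunits, whose tails close the gate of the core, Psma7 had the largest log2 fold change, 0.39 ± 0.16 (SE; chromosome 2, 180036374 to 180042433). It had 33.5, 37.0 and 38.2 CPM in injured and 31.9, 23.1 and 28.3 CPM in non-injured libraries. Every injured library lay above every non-injured one, and the adjusted p was 0.271 (edgeR), or 0.114 with the letter block. Psma5, named after its values were seen, had almost the same log2 fold change, 0.39 ± 0.23 (SE), but its groups overlapped, with 11.8, 10.4 and 17.1 CPM in injured and 10.3, 11.1 and 8.57 CPM in non-injured libraries. Reads of Psma5 are uncertain, because its counts were fractional in all 6 libraries and the processed pseudogene Psma5-ps held 7.41 to 9.48 CPM in injured and 7.14 to 7.69 CPM in non-injured libraries. Psma3 had the lowest value of the ring, -0.09, with 19.1, 18.2 and 27.8 CPM in injured and 24.7, 23.5 and 20.9 CPM in non-injured libraries. The other alpha subunits, Psma1, Psma2, Psma4 and Psma6, lay between 0.05 and 0.21 on the log2 scale, and each overlapped between groups.

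The 6 ATPases, which unfold the substrate, divided into 2 with a log2 fold change of 0.47 and 4 between -0.13 and 0.18. Psmc5 (chromosome 11, 106256154 to 106263120) had 20.4, 19.4 and 28.6 CPM in injured and 16.1, 15.8 and 17.4 CPM in non-injured libraries. Its groups did not overlap, and its log2 fold change of 0.47 ± 0.18 (SE) had an adjusted p of 0.25 (edgeR), or 0.0962 with the letter block. Psmc4, named after its values were seen (chromosome 7, 28041707 to 28050101), had 28.3, 54.7 and 49.4 CPM in injured and 35.3, 29.04 and 31.1 CPM in non-injured libraries. Injured A was its lowest library of all and injured B its highest, and the adjusted p was 0.312 (edgeR). Psmc2 had the lowest value, -0.13, with 32.6, 31.2 and 36.0 CPM in injured and 41.1, 33.6 and 34.5 CPM in non-injured libraries. Psmc3, the ATPase with the most mRNA per length, had a log2 fold change of 0.18, Psmc1 one of 0.06 and Psmc6 one of -0.05.

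The name rule found 3 base subunits without ATPase activity. Of these, the scaffold Psmd2 and the ubiquitin receptor Psmd4 had values of over 0.4 on the log2 scale, without passing the test. Psmd2 (chromosome 16, 20651652 to 20663414) had 82.7, 97.8 and 117 CPM in injured and 77.9, 70.0 and 71.2 CPM in non-injured libraries. Its log2 fold change was 0.44 ± 0.15 (SE), with an adjusted p of 0.195 (edgeR) and of 0.0521 with the letter block. The counts of Psmd2 were whole in only 1 of 6 libraries, so its level is uncertain where reads were divided between features. Psmd4 (chromosome 3, 95032694 to 95042614) had 90.6, 112 and 141 CPM in injured and 88.4, 85.8 and 82.9 CPM in non-injured libraries, a log2 fold change of 0.42 ± 0.16 (SE). The adjusted p of Psmd4 was 0.252 (edgeR) and 0.0791 with the letter block. In both genes the groups did not overlap, injured A lay just above non-injured A and injured C was highest. The larger scaffold Psmd1 had 98.2, 92.8 and 112 CPM in injured and 103, 93.2 and 93.8 CPM in non-injured libraries, with a log2 fold change of 0.06. These 3 base genes had a median of 0.42 and the 8 lid genes found by the rule one of 0.03, a difference that was not tested. Without injured C these medians were 0.21 and -0.06, and without non-injured C 0.37 and -0.05. The base subunit Adrm1 and the lid subunit Sem1 have names outside the rule and were counted among the cap's partner genes. Their log2 fold changes were 0.18 and 0.15, and both overlapped between groups.

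**Figure D3:**
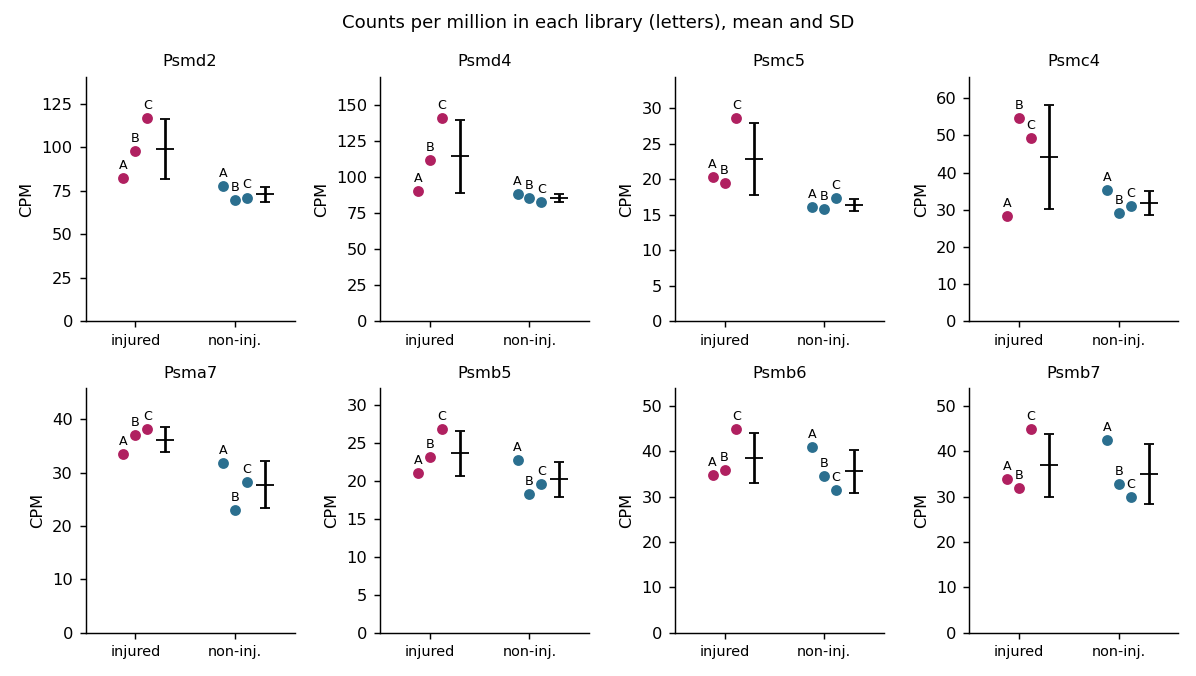
CPM in each library (points, with the letter of the library) for 8 proteasome genes, injured left of non-injured; bars give mean and SD of 3 libraries. Groups do not overlap for Psmd2, Psmd4, Psmc5 and Psma7; in Psmc4 injured A is the lowest of the 6 libraries, and in the catalytic subunits Psmb5, Psmb6 and Psmb7 injured C is the highest.

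The lid, which removes the ubiquitin chain, ran from -0.16 to 0.17 on the log2 scale over 8 genes. Psmd14, the deubiquitinase of the lid, had 14.6, 13.6 and 18.5 CPM in injured and 17.2, 14.4 and 12.2 CPM in non-injured libraries, a log2 fold change of 0.09 ± 0.20 (SE). Psmd11, a subunit that links lid, base and core, had 76.1, 98.9 and 92.7 CPM in injured and 90.9, 90.7 and 88.6 CPM in non-injured libraries, a log2 fold change of -0.01 ± 0.14 (SE). Psmd7, partner of Psmd14, had the highest value of the lid, with 78.7, 80.2 and 90.1 CPM in injured and 77.9, 70.4 and 73.2 CPM in non-injured libraries. Its groups did not overlap, yet the log2 fold change of 0.17 ± 0.13 (SE) had an adjusted p of 0.591 (edgeR). Psmd12 had the lowest, with 28.0, 26.4 and 32.5 CPM in injured and 33.8, 28.9 and 34.5 CPM in non-injured libraries. Psmd3, Psmd6 and Psmd13 lay between 0.01 and 0.05.

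Psmd8, a lid subunit named after its values were seen, had 128, 101 and 111 CPM in injured and 161, 82.9 and 94.4 CPM in non-injured libraries. Letter A was the highest library of either group, the log2 fold change was 0.00 ± 0.22 (SE), and the interval ran from -0.47 to 0.47.

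The genes outside the particle had few counts or flat values. The chaperone Psmd10 (gankyrin) had 3.06, 2.60 and 2.85 CPM in injured and 2.30, 1.61 and 0.94 CPM in non-injured libraries, at a mean of 16.0 counts. Its groups did not overlap, its log2 fold change was 0.80 ± 0.45 (SE, adjusted p 0.422 by edgeR), and its interval from -0.17 to 1.77 is the widest among subunits and chaperones. The chaperone Psmd9 had 11.2, 11.0 and 11.96 CPM in injured and 11.2, 12.7 and 12.3 CPM in non-injured libraries, a log2 fold change of -0.09, and Psmd5 had one of 0.03. Psmb11, which replaces Psmb5 in the cortex of the thymus, had 13, 23 and 14 counts in injured and 1, 5 and 10 counts in non-injured libraries. That gave the largest value of all 35 genes, 1.87 ± 0.64 (SE) on the log2 scale with an adjusted p of 0.192 (edgeR), and an interval from 0.48 to 3.25. Its non-injured counts alone would not have passed the filter, which therefore favoured a higher value in injured muscle. Without non-injured C the value was 2.72, and leaving out each library in turn it ran from 1.37 to 2.72. Genes with a mean under 20 counts, of which there were 3303, had a median of 0.39 on the log2 scale, and all genes one of 0.00. Psmc3ip, with a mean of 9.36 counts, did not pass the filter and was not tested.

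The 31 subunits differed most in the letter C pair. Between injured C and non-injured C the median difference was 0.33 on the log2 CPM scale, and 30 of 31 subunits were positive, Psmd12 being the exception. In letter A the median was -0.10 with 10 of 31 positive, and in letter B it was -0.01 with 15 of 31 positive. Over all genes 50.3% were positive in letter C, 48.3% in letter A and 50.7% in letter B. The 5732 protein-coding genes of like counts had a median of -0.04 in letter C. Injured C was the highest of the 6 libraries for 20 of the 31 subunits, and the lowest for 0. All 14 core subunits and all 6 ATPases were positive in letter C, with medians of 0.42 and 0.27.

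**Figure D4:**
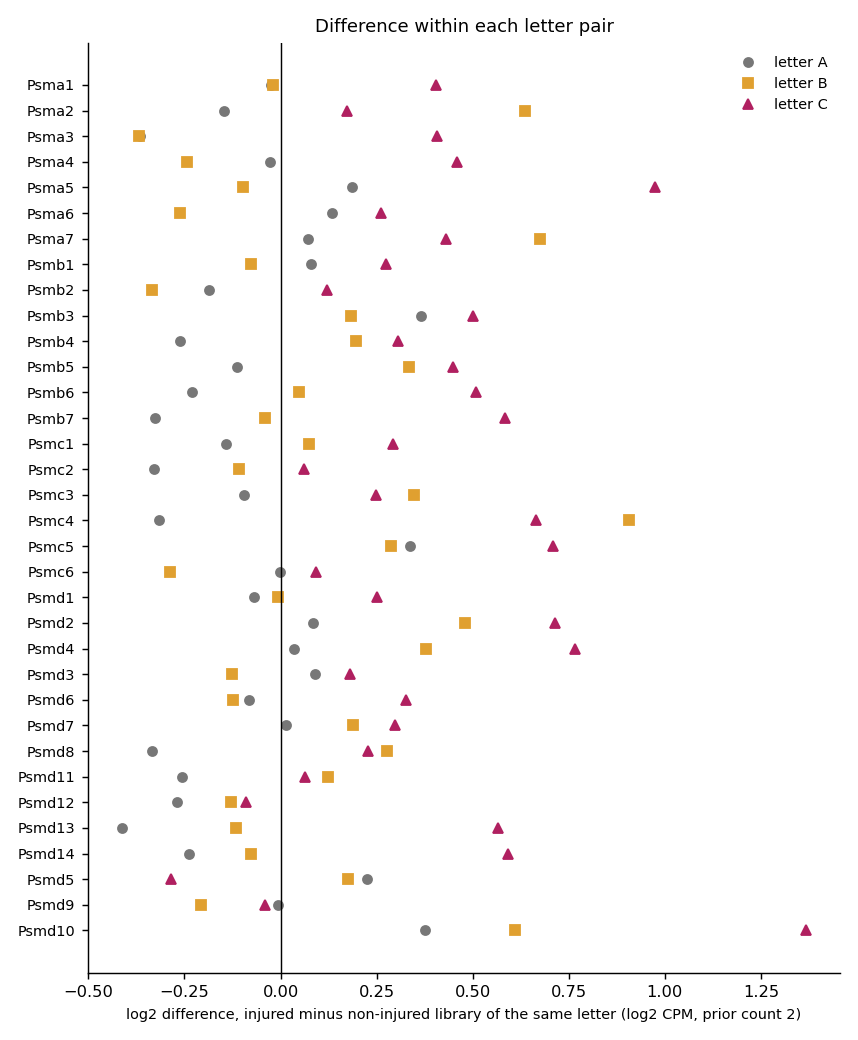
Difference of log2 CPM (x axis, prior count of 2) between the injured and the non-injured library of the same letter, for each subunit and chaperone (rows), with 1 symbol per letter. Letter C is positive for 30 of the 31 subunits, while letters A and B scatter on both sides of 0.

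The positive balance among the 31 subunits depended on which libraries were in the fit, and no fit left out both letter C libraries. Without injured C the median of the 31 subunits was -0.02 and 14 were positive, and without non-injured C it was 0.00 with 16 positive. Without both letter A libraries the median was 0.24 with 26 positive. In that fit 2 of the 35 genes had an adjusted p under 0.05 (edgeR), Psmd2 with 0.0452 and Psmc4 with 0.0189, against 1.8% of all genes in either direction and 0.999% higher. The log2 fold change of Psmd2 was then 0.60. A difference in 3 of 3 letter pairs was seen in 8 of 35 genes as higher (22.9%) and in 2 of 35 as lower (5.71%), where 21.6% and 22.0% of all genes were. Groups that did not overlap were found in 7 of 35 genes, all higher in injured muscle, and in 21.5% of all genes, with 11.9% higher and 9.57% lower. Of the 31 subunits 5 were so, all higher, against 391 higher and 733 lower of the 5732 protein-coding genes of like counts.

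Other genes of the ubiquitin-proteasome route were compared in 8 lists with 46 measured genes, of which 0 passed the test in either direction (edgeR, adjusted p under 0.05). At an unadjusted p under 0.05, 2 were higher (Psmb9 and Mafk) and 1 was lower (Psmf1), against 15.4% of all genes in either direction, and DESeq2 and limma-voom called 0. With the letter block 1 of the 46 rose, against 5.86% of all genes in either direction and 3.21% higher, so neither count exceeds the background. That gene was Mafk, a small partner protein of NRF1 at AREs. Mafk had 13.8, 16.8 and 19.5 CPM in injured and 7.78, 13.3 and 8.70 CPM in non-injured libraries, a log2 fold change of 0.74 ± 0.23 (SE), with an adjusted p of 0.153 without the block and 0.0318 with it. Nfe2l1 itself had 237, 253 and 298 CPM in injured and 240, 224 and 230 CPM in non-injured libraries, which gave 0.18 ± 0.14 on the log2 scale (SE, adjusted p 0.58 by edgeR). Non-injured A lay above injured A, so its groups overlapped. Ddi2, the protease that activates NRF1, had a log2 fold change of -0.19, and the 7 genes listed for that route had a median of -0.06. That list also holds Nfe2l2, which encodes NRF2, and Maf, which is not one of the small partner proteins, so its median is not that of NRF1 and its partners alone.

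The immunoproteasome genes, whose products replace the catalytic subunits under interferon, had few counts. Psmb9 had 1.99, 4.28 and 1.85 CPM in injured and 1.28, 1.38 and 0.67 CPM in non-injured libraries, which gave 1.26 ± 0.52 on the log2 scale (SE, adjusted p 0.275 by edgeR) at a mean of 13.5 counts. Like Psmb11, it passed the filter through its injured libraries. Psmb8 had 3.52, 2.75 and 2.99 CPM in injured and 3.95, 2.87 and 1.21 CPM in non-injured libraries, a log2 fold change of 0.20. Psmb10 had 2.60, 1.99 and 2.71 CPM in injured and 2.30, 1.95 and 1.87 CPM in non-injured libraries, a log2 fold change of 0.25. Both overlapped between groups. Their means per library were 21.2 and 16.3 counts. The intervals, -0.76 to 1.16 for Psmb8 and -0.63 to 1.14 for Psmb10 on the log2 scale, included a 2-fold rise, which was therefore not excluded.

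Of 5 regulators of the core, 0 passed the test (edgeR), and 1, Psmf1, had an unadjusted p under 0.05. The activator gene Psme4, whose product PA200 caps the core without ATP, had 225, 176 and 205 CPM in injured and 284, 202 and 201 CPM in non-injured libraries, a log2 fold change of -0.18 ± 0.17 (SE). Psme1, a subunit of the PA28 activator, had 13.5, 15.6 and 14.5 CPM in injured and 15.2, 12.6 and 12.5 CPM in non-injured libraries, a log2 fold change of 0.11. Its partner Psme2, at a mean of 10.4 counts, had 1.07, 2.75 and 0.71 CPM in injured and 1.53, 0.69 and 1.87 CPM in non-injured libraries, a log2 fold change of 0.15 with an interval from -1.17 to 1.47. Both overlapped between groups. Psmf1, the inhibitor PI31, was named after its values were seen. It had 9.49, 7.64 and 9.40 CPM in injured and 14.9, 12.3 and 11.7 CPM in non-injured libraries, groups that did not overlap, with -0.55 ± 0.21 on the log2 scale (SE, adjusted p 0.234 by edgeR). The 5 measured assembly chaperones of the core (Psmg1, Psmg2, Psmg3, Psmg4 and Pomp) ran from -0.13 to 0.55.

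Of 6 genes of ubiquitin supply and 5 measured muscle ubiquitin ligases, 0 passed the test (edgeR), and 0 had an unadjusted p under 0.05. The polyubiquitin gene Ubb had a log2 fold change of 0.10. Trim63 (MuRF1), a ligase raised in many forms of atrophy, had 285, 516 and 692 CPM in injured and 308, 481 and 552 CPM in non-injured libraries, which gave 0.15 ± 0.28 on the log2 scale (SE, adjusted p 0.834 by edgeR). Fbxo32 (atrogin-1), the other such ligase, had 399, 709 and 800.0 CPM in injured and 582, 599 and 690 CPM in non-injured libraries, a log2 fold change of 0.03 ± 0.21 (SE). In both ligases letter A was the lowest library of each group. The list of muscle ligases had a median of -0.06 over 5 genes, and the shuttle factors and VCP -0.10 over 9. The cap's partner genes, with the cap subunits Adrm1 and Sem1 counted among them, had one of -0.05 over 6.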

How the data were processed

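The deposited values are estimated counts, 1 per gene and library, and 75.6% to 77.4% of those in a library are whole to within 0.01. Per the submitters' processing notes, which assign no roles, the tools were STAR 2.7.8a, Partek and DESeq2 and the builds mm10 and hg19. Which program counted, whether by strand, and on which annotation is not given in the sources used here. The lowest row maximum is 10.0. Of the 36 proteasome genes 24 had whole counts in all 6 libraries and 8 in none (Psma3, Psma5, Psmb3, Psmb5, Psmb7, Psmd1, Psmd11, Psmd13). Another 4 had whole counts in some libraries: Psmd2 in 1, Psma4 in 2, Psmc3ip in 3 and Psmc1 in 5. The values of all genes with fractional counts are uncertain where reads were divided between features. Genes that lie antisense to a subunit gene, such as Nek6 to Psmb7, cannot be told apart without strand where they overlap. For genes that overlap on the same strand, strand would not help. An example is AW209491, whose span shares 8943 bases with that of Psma2 and which had a mean of 83.7 counts.

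Counts were rounded, filtered with filterByExpr (16095 genes kept, 3920 dropped), scaled by TMM and tested two-sided with edgeR 4.0.16 in R 4.3.3, injured against non-injured, threshold 0.05 after Benjamini-Hochberg adjustment. SE was derived from the estimate and its F statistic (the size of the estimate divided by the root of F), and 95% intervals use the fit's total degrees of freedom. CPM use TMM-scaled totals. Since separate individuals are not stated, p-values reflect only how far these libraries vary, which can be technical. The fit was tested on simulated data with changes of 2-fold and larger, which does not show how well smaller differences would be found. Same-letter deviations from the group means correlated at 0.316 (A), 0.208 (B) and 0.113 (C), so the letters were taken to pair the libraries and a letter block was fitted too, although the labels do not explain them.

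Named were the catalytic subunits, Psmd14, Psmd11, Psmd4, genes past either fit's threshold, the extremes of each sub-group in log2 fold change, the extremes in level, and a fixed set of partner genes; 1 gene of the partner lists is not reported by name here. The members and lists were chosen with earlier results of these data known. Alternatives were upper quartile and RLE scaling, scaling on protein-coding genes, DESeq2 1.42.0, limma-voom (limma 3.58.1), no filter, a mean of at least 50 counts, the block, and leaving out libraries.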

Additional observations from a re-analysis of the deposited data

How the results depend on the processing

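Under the alternatives run on 29 named genes, 403 of 429 values kept their direction and their side of the threshold. Psmd2 passed it without both letter A libraries (0.60) and Mafk with the letter block (0.76); the block changed no other call among the members and partner genes. Without both letter A libraries 2 members were called higher, the median of the 11 non-ATPase cap subunits was 0.23, and 132 of all genes were lower. With the replicate block 1 partner gene was higher, and 516 of all genes were higher and 427 lower, against 115 and 5 without it. DESeq2 called 252 higher and 75 lower, and limma-voom 53 higher. Without a filter 17 were lower, and with a mean of at least 50 counts 3. Leaving out 1 library at a time, 20 to 104 genes were higher and 0 to 25 lower, 0 members were called, and the non-ATPase median ran from -0.046 to 0.14.

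24 values of 10 genes that did not pass the test changed sign. Psmd11 was 0.037 with upper quartile scaling, 0.056 under the stricter count filter, 0.074 without injured A and 0.089 without both letter A libraries; Psma3 was 0.045 in that last fit. Fbxo32 was -0.029 with limma-voom, -0.026 without a filter and -0.026 with the block. Leaving out 1 library at a time, values ran from -0.33 to 0.027 for Psma3, -0.037 to 0.20 for Psmb6, -0.11 to 0.21 for Psmb7, -0.040 to 0.12 for Psmd1, -0.093 to 0.074 for Psmd11, -0.073 to 0.21 for Psmd14, -0.20 to 0.26 for Fbxo32, -0.17 to 0.56 for Psmb8, -0.60 to 0.46 for Psme2 and -0.19 to 0.42 for Trim63. The cause was not tested. Across scaling and filter settings with all 6 libraries, 21 to 27 of the 31 subunits were positive. With 3 libraries per group, the smallest two-sided p of an exact permutation test is 0.1, so none was run; genes with few counts have the widest intervals.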
